A study of Mus musculus with 11 samples.

Results

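The subunits of the hypoxia-inducible factor (HIF) and the enzymes that gauge oxygen for it were followed in KP1 cells, a mouse small cell lung cancer (SCLC) line, after irradiation. The set holds 10 genes of the 35017 gene symbols in the files: the alpha subunits Hif1a, Epas1 and Hif3a, the beta subunits Arnt and Arnt2, the ubiquitin ligase subunit Vhl, the prolyl hydroxylases Egln1, Egln2 and Egln3, and the asparaginyl hydroxylase Hif1an. They were chosen by name and function, and transcript values were summed to each gene symbol with the GENCODE M21 annotation. KP1 cells are Rb/p53 mutant, were grown in RPMI-1640 with serum (bovine growth serum by the labels, fetal bovine serum by the study's methods), and are the only line measured. The bulk RNA sequencing libraries were 2 of cells labelled untreated (control replicates 2 and 3) and 3 of cells collected 24 h after 5 Gy (irradiated replicates 1, 2 and 3). The protocol text attached to all 5 libraries speaks of the radiation, so the controls were taken as untreated from their treatment label. No source says that the libraries are independent cultures, so p values measure the spread between these libraries.

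HIF is a heterodimer of an alpha and a beta subunit that binds DNA and switches on genes of glycolysis, oxygen supply and survival under low oxygen. When oxygen is present, the prolyl hydroxylases mark the alpha subunit, the VHL protein recognizes the mark as part of a ubiquitin ligase, and the alpha subunit is degraded. The asparaginyl hydroxylase blocks the binding of coactivators instead. Because this control acts on the protein, the level of an alpha subunit's mRNA does not give the activity of HIF, and no protein was measured here.

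In irradiated cells 2 genes of the oxygen-sensing arm were higher, Egln3 by 2.07-fold and Vhl by 1.51-fold, and 3 genes were lower, Hif1an (0.602-fold), Arnt2 (0.688-fold) and Arnt (0.716-fold). These calls came from edgeR's quasi-likelihood test at an adjusted p under 0.05, in which 8 of the 10 genes passed the filter on low counts. The test called 12.7% of all 14091 genes tested higher and 13% lower. The 3 lower calls were lost, and Egln1 was gained as a higher gene, when a trend with transcript length was removed from each library. By the study's thresholds, a log2 fold change beyond 1.5 in either direction together with the adjusted p, 0 of the 8 genes were called by edgeR and 0 by DESeq2, beside 1.65% of all genes above and 1.9% below.

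The libraries held 21185956 to 31036317 estimated reads. An average read came from a transcript of 4729 or 5463 bases in the control libraries but of 3625 to 3998 bases in the irradiated libraries, so length moved with the groups and cannot be told apart from irradiation by design. The log2 fold changes of the genes tested are therefore given without and with a length offset. The offset removes the smooth trend of counts with transcript length in each library, whatever its source. Shares, ratios and the order of levels in TPM were not run with it. All 9 SCLC and neuroendocrine marker genes examined, Chga, Syp and Dll3 among them, had a mean of at least 1 TPM (abundance scaled for transcript length and library total), and their summed TPM was 2000 to 2160 in control and 2100 to 2350 in irradiated cells. Single genes differed in both directions within that sum. Ncam1 was at 354 and 153 TPM in control and 78, 46.7 and 84 TPM in irradiated libraries. Uchl1 was at 451 and 684 TPM in control and 867, 1060 and 758 TPM in irradiated libraries. Of the markers of other cells, 1 of 5 endothelial genes, 1 of 5 leukocyte genes and 1 of 4 fibroblast genes reached that mean. These were Tek, at 7.24 to 11 TPM over the 5 libraries, Cd68, and Col1a1, which was high in 1 library. Of the remaining endothelial genes, Pecam1 reached 1.22 TPM and Kdr 0.332 TPM, and Cdh5 and Emcn were at or near 0 in every library, as were Lyz2, Adgre1 and Csf1r among the leukocyte genes and Dcn among the fibroblast genes. The summed leukocyte list, carried by Cd68, was 4.55 to 6.91 TPM in control and 1.18 to 1.62 TPM in irradiated cells, and its part in the results was not tested.

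Hif1a, which encodes the broadly expressed alpha subunit, was the most abundant of the 10 genes in control cells (chromosome 12, 73901375 to 73947530, plus strand, GRCm38). Its TPM was 85.5 and 92.6 in control replicates 2 and 3, and 50.2, 49.5 and 64.0 in irradiated replicates 1, 2 and 3. All 3 irradiated libraries lay below both control libraries. In CPM, read counts scaled to the normalized library total, the control libraries were both at 199 and the irradiated libraries at 136, 149 and 168. edgeR gave a log2 fold change of −0.40 (SE 0.15) with an adjusted p of 0.0801. Hif1a thus missed the threshold, and with the length offset its log2 fold change was 0.02 (adjusted p = 0.934). On the log2(TPM + 1) scale, where the median of all genes was −0.24, it was called lower, at −0.70 (adjusted p = 0.0307 by limma).

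Hif1a is transcribed from alternative first exons, and the libraries contained both of the forms that reached 10% of its TPM. The downstream form Hif1a-201, which starts at position 73907904, made up 84.0% and 75.7% of Hif1a TPM in the control libraries and 77.7% to 78.2% in the irradiated libraries. The upstream form Hif1a-202, which starts at position 73901375, made up 11.7% and 15.7% in control and 15.4%, 20.5% and 16.5% in irradiated libraries. The shares of both forms overlapped between the groups. The protein-coding gene Gm49321 overlaps Hif1a on the same strand and took at most 11 reads in any library.

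Epas1, which encodes HIF-2α, the alpha subunit best known from endothelial and kidney cells, was barely detected (chromosome 17, 86753700 to 86833410, plus strand). Control replicate 2 had 19 reads and control replicate 3 had 1 read, while irradiated replicates 1, 2 and 3 had 6, 2 and 2 reads. Only control replicate 2 and irradiated replicate 1 were above the floor of 3 reads, and the groups overlapped. Control replicate 2 was also the only library with Col1a1, a collagen gene of fibroblasts, at 13.5 TPM, where the other 4 libraries had 0.0249 to 0.104 TPM. The remaining fibroblast genes Col1a2, Pdgfrb and Dcn did not share this, at 0.0564, 0.0497 and 0 TPM in control replicate 2. In that library the endothelial genes Cdh5 and Emcn were listed at 0, while Tek was at 9.43 TPM, Pecam1 at 1.22 TPM and Kdr at 0.331 TPM. Tek was at 7.24 to 11 TPM in the other 4 libraries and Pecam1 at 0.261 to 0.924 TPM, and the part of other cells in the Epas1 reads was not tested. Without the filter on low counts, the log2 fold change of Epas1 was −1.30 with an adjusted p of 0.586 by edgeR.

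Hif3a, which encodes an alpha subunit with splice forms that can restrain the others, was equally scarce (chromosome 7, 17031507 to 17062427, minus strand). It had 0 and 1 read in control replicates 2 and 3, and 10, 5 and 3 reads in irradiated replicates 1, 2 and 3. The reads of the irradiated libraries were more numerous than those of both controls, but in TPM the groups overlapped, with 0.0366 in control replicate 3 and 0.0284 in irradiated replicate 3. Both control libraries and irradiated replicate 3 were at or under the floor, so no fold change is given. Without the filter the adjusted p was 0.268 by edgeR.

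The log2 ratio of Epas1 to Hif1a TPM was −8.44 and −12.7 in the control libraries and −9.45, −10.9 and −11.4 in the irradiated libraries. The irradiated values fell inside the range of the 2 controls. The difference of the means was −0.0259 (exact two-sided permutation test, p = 1, where 0.1 is the smallest p that 2 against 3 libraries can give). At 1 to 19 Epas1 reads per library, a shift between these alpha subunits was not detectable at this depth.

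**Figure D1:**
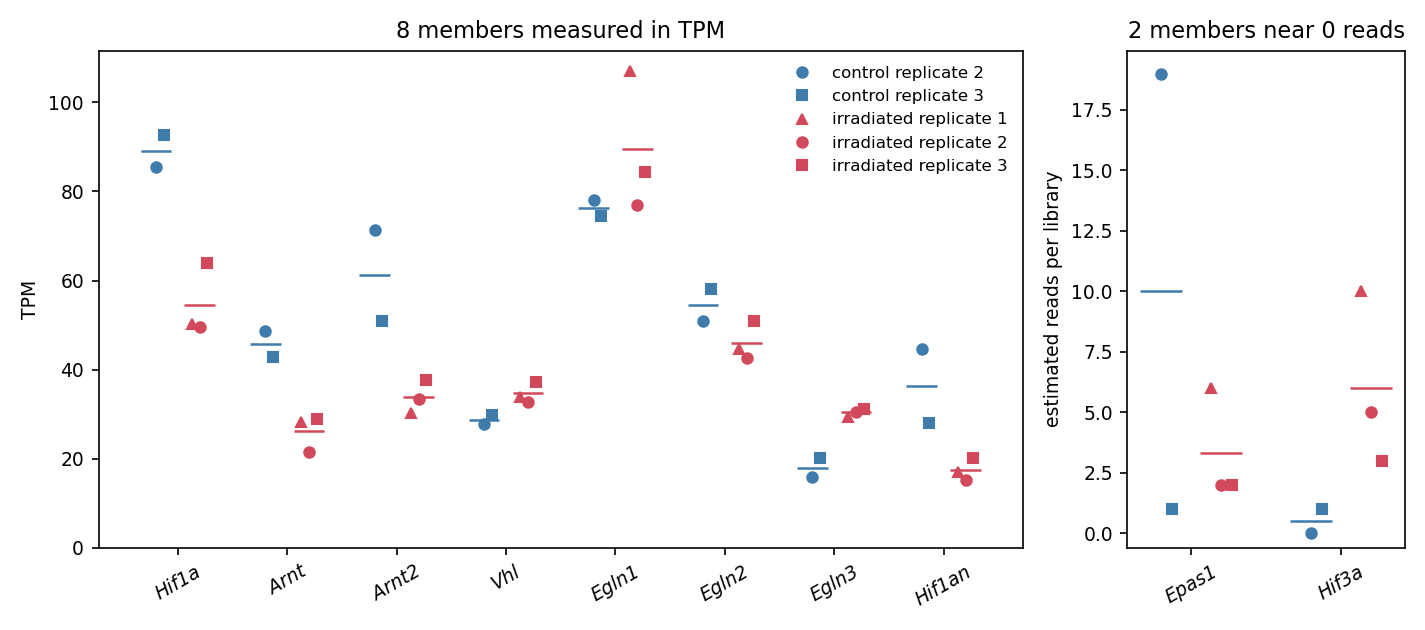
Levels of the 10 genes in each library. The left panel gives TPM of 8 genes and the right panel the estimated reads of Epas1 and Hif3a. Points are libraries (blue, control; red, irradiated) and short lines are group means. On the TPM scale, irradiated libraries lie below both controls for Hif1a, Arnt, Arnt2, Hif1an and Egln2 (which lies above them in CPM) and above both for Vhl and Egln3. Epas1 reaches 19 reads in control replicate 2 only.

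The beta subunits were both expressed, and both were lower in irradiated cells unless length was corrected for. Arnt, which encodes HIF-1β, the partner of all alpha subunits and of the aryl hydrocarbon receptor, lies on chromosome 3 (95434388 to 95497240, plus strand). Its TPM was 48.6 and 42.9 in control and 28.2, 21.5 and 28.8 in irradiated libraries. The groups did not overlap. The log2 fold change was −0.48 (SE 0.15, adjusted p = 0.0488 by edgeR), and with the length offset it was −0.28 (adjusted p = 0.201).

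Arnt2, the paralog best known from neurons, lies on chromosome 7 (84246278 to 84410176, minus strand). Its TPM was 71.3 and 51.0 in control and 30.3, 33.5 and 37.6 in irradiated libraries. The controls lay above all irradiated libraries but differed from each other by more than the irradiated libraries did. edgeR gave a log2 fold change of −0.54 (SE 0.15, adjusted p = 0.0362), and with the length offset it was −0.09 (adjusted p = 0.632).

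The balance between the beta subunits was compared as a share. Arnt2 made up 59.5% and 54.3% of the summed TPM of Arnt and Arnt2 in control libraries and 51.8%, 60.9% and 56.6% in irradiated libraries. The difference of the means was −0.469 percentage points (exact two-sided permutation test, p = 0.9), and the groups overlapped. With all transcript forms summed, Arnt2 was the more abundant beta subunit in each of the 5 libraries, at 51.8% or more. In irradiated replicate 1 the margin was small, at 30.3 TPM for Arnt2 and 28.2 TPM for Arnt. There Arnt2 included 2.91 TPM of Arnt2-206, a form annotated for nonsense-mediated decay, and the order rested on counting it.

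The transcript forms of the beta subunits varied more between libraries than between groups. Arnt-203 (2699 bases) held 40.0% to 50.7% of Arnt TPM over the 5 libraries, and Arnt-202 (4325 bases) held 42.5% to 55.5%. Most Arnt2 TPM came from Arnt2-201 (6151 bases), at 63.7% to 77.6%. The short form Arnt2-204 (792 bases, 5 exons) ranged from 8.95% in irradiated replicate 1 to 29.2% in control replicate 2, with overlapping groups. The minor forms Arnt2-202 and Arnt2-206, below 10% in every library, did not overlap. Arnt2-202 held 2.78% and 4.37% in control and 0% in each irradiated library. Arnt2-206 held 0% and 2.79% in control and 9.59%, 5.05% and 3.51% in irradiated libraries.

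Vhl, which encodes the substrate-recognition subunit of the ubiquitin ligase, was higher in irradiated cells (chromosome 6, 113623959 to 113631633, plus strand). Its TPM was 27.7 and 29.7 in control and 33.9, 32.8 and 37.3 in irradiated libraries. In normalized CPM it was 38.2 and 37.6 in control and 56.1, 57.1 and 58.9 in irradiated libraries, so on both scales every irradiated library lay above both controls. The log2 fold change was 0.60 (SE 0.14, adjusted p = 0.0197 by edgeR) and stayed at 0.63 with the length offset (adjusted p = 0.0301). On the log2(TPM + 1) scale, where the median of all genes was −0.24, it was 0.26 with an adjusted p of 0.283 by limma, so the call was lost there. At least 94.2% of Vhl TPM came from the transcript Vhl-201.

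Among the prolyl hydroxylases, Egln3 had the largest change. Egln3 encodes PHD3, an oxygen sensor that is itself a known HIF target, and lies on chromosome 12 (54178981 to 54203860, minus strand). Its TPM was 15.9 and 20.1 in control and 29.4, 30.5 and 31.2 in irradiated libraries. The irradiated libraries lay close together and above both controls. The log2 fold change was 1.05 (SE 0.17, 95% confidence interval 0.67 to 1.43, adjusted p = 0.00899 by edgeR). With the length offset it was again 1.05 (adjusted p = 0.0184), and over 23 alternatives it ranged from 0.73 to 1.22. The annotation in the files has 1 transcript of Egln3, of 2662 bases.

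Egln1 encodes PHD2, the main oxygen sensor for HIF-1α in most cells, and lies on chromosome 8 (124908587 to 124949324, minus strand). Its TPM was 78.0 and 74.6 in control and 107, 77.0 and 84.4 in irradiated libraries. Irradiated replicate 1 was high, and irradiated replicate 2 lay between the controls. In normalized CPM the groups did not overlap, with 142 and 132 in control and 233, 178 and 176 in irradiated libraries. The log2 fold change was 0.51 (SE 0.17) and missed the threshold (adjusted p = 0.0605 by edgeR), whereas with the length offset it was 0.76 and passed (adjusted p = 0.0398).

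Egln2, which encodes PHD1, lies on chromosome 7 (27158658 to 27166802, minus strand). Its TPM was 50.9 and 58.0 in control and 44.7, 42.6 and 50.8 in irradiated libraries, all below both controls. In normalized CPM the order was the opposite but barely so, with 51.1 and 49.5 in control and 51.1, 51.8 and 55.9 in irradiated libraries. Control replicate 2 and irradiated replicate 1 were equal at the precision given. Its log2 fold change was 0.08 (SE 0.14, 95% confidence interval −0.24 to 0.39, adjusted p = 0.721 by edgeR), −0.11 with the length offset and −0.24 on the log2(TPM + 1) scale, so its direction depended on the scaling. On that last scale the median of all genes was also −0.24. Cyp2t4, on the other strand, overlaps Egln2 by 11 bases and took 4 to 18 reads.

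Within the hydroxylase pool, the irradiated libraries held a larger share of Egln3 and a smaller share of Egln2. Egln3 made up 11.0% and 13.1% of the summed Egln TPM in control and 16.3%, 20.3% and 18.8% in irradiated libraries. Egln2 made up 35.2% and 38.0% in control and 24.7%, 28.4% and 30.5% in irradiated libraries. Neither share overlapped between the groups. The difference of means was 6.39 percentage points for Egln3 and −8.7 percentage points for Egln2, each with an exact two-sided permutation p of 0.1, the smallest that the design allows, so neither could pass 0.05. Egln1 was the largest component throughout, with 53.9% and 48.9% in control and 59.0%, 51.3% and 50.7% in irradiated libraries, and its share overlapped between the groups (difference 2.31 percentage points, exact permutation p = 0.7). These 3 shares sum to 100% in a library and are not independent of each other.

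**Figure D2:**
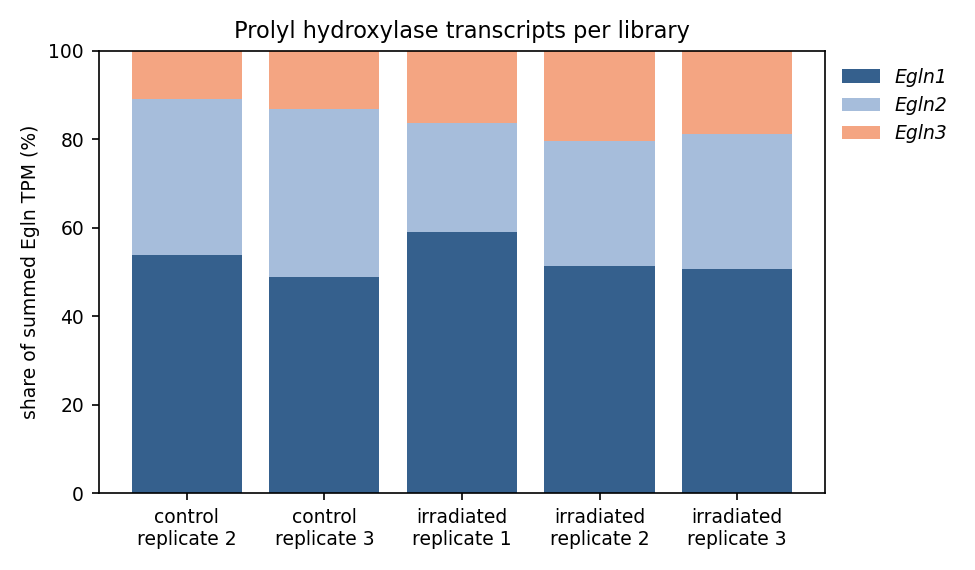
Share of each prolyl hydroxylase gene in their summed TPM (percent, y axis) in each of the 5 libraries (x axis). The Egln3 segment is 11.0% and 13.1% in the control libraries and 16.3% to 20.3% in the irradiated libraries.

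Hif1an encodes FIH, the asparaginyl hydroxylase that keeps coactivators away from the alpha subunit, and lies on chromosome 19 (44562850 to 44576274, plus strand). Its TPM was 44.6 and 28.0 in control and 17.0, 15.1 and 20.1 in irradiated libraries. The irradiated libraries lay below both controls, and control replicate 2 stood well above control replicate 3. By edgeR its log2 fold change was −0.73 (SE 0.20, adjusted p = 0.0319). Without control replicate 2 it was −0.37 (adjusted p = 0.259), and with the length offset it was −0.05 (adjusted p = 0.849). Hif1an-201, its main transcript, is 6194 bases long, the longest main transcript among the 8 genes tested.

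All 8 genes tested were non-overlapping between the groups in normalized CPM, Egln2 by less than the precision given. Hif1a, Arnt, Arnt2 and Hif1an lay below both controls in all 3 irradiated libraries, and Vhl, Egln1, Egln2 and Egln3 lay above. Of all genes tested, 29.3% lay below in this way and 30.1% above. With the length offset, 3 of the 8 were called higher (Vhl, Egln1 and Egln3), beside 4.33% of all genes, and 0 were called lower, beside 3.74% of all genes. At an unadjusted p under 0.05, 0 were lower in that fit as well. An offset from Salmon's effective lengths gave 0 lower calls, although the log2 fold changes barely moved (−0.72 for Hif1an, adjusted p = 0.0509 by edgeR). In that fit 3 of the 8 genes were lower at an unadjusted p under 0.05. Over all 14091 genes it called 1476 higher and 1393 lower.

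**Figure D3:**
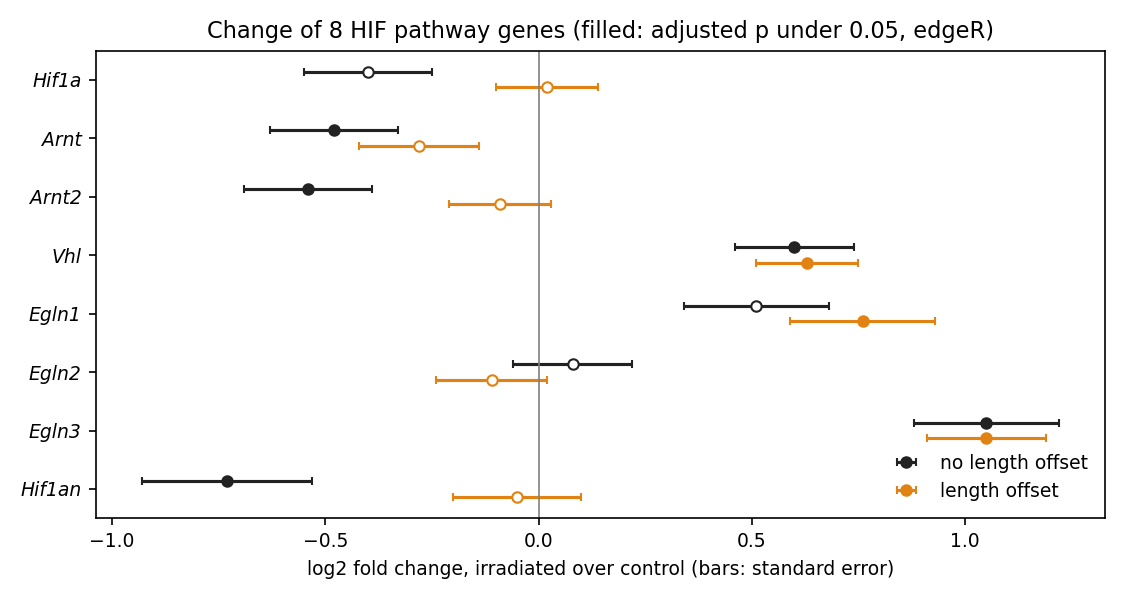
Log2 fold change of 8 genes (x axis, irradiated over control) from edgeR without and with the length offset. Bars are standard errors and filled points have an adjusted p under 0.05. Egln3 and Vhl stay near 1.05 and 0.60 in both fits, whereas Hif1a, Arnt2 and Hif1an move to near 0 with the offset.

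Which genes were called depended on the libraries kept. Egln3 stayed called without irradiated replicate 1, 2 or 3, with log2 fold changes of 1.07, 1.01 and 1.07. The adjusted p values were 0.0372, 0.0281 and 0.0136 by edgeR. The log2 fold change of Vhl was 0.59 to 0.63 with any 1 library left out. Without control replicate 2, 0 members were called in either direction by edgeR (3 higher and 0 lower at an unadjusted p under 0.05), and Egln3 had a log2 fold change of 0.93 (adjusted p = 0.0535 by edgeR). That fit called 97 genes higher and 179 lower over the whole table, against 1792 and 1834 with all 5 libraries. Leaving out irradiated replicate 1 or irradiated replicate 2 removed the 3 lower calls, while the log2 fold changes stayed near those with all libraries. Without irradiated replicate 1 they were −0.52 for Arnt, −0.51 for Arnt2 and −0.72 for Hif1an, and without irradiated replicate 2 they were −0.42, −0.51 and −0.67. Calls over the whole table fell too. There were 843 higher and 917 lower without irradiated replicate 1, and 687 and 837 without irradiated replicate 2. Leaving out irradiated replicate 2 also removed Vhl, whose log2 fold change stayed at 0.60. Without irradiated replicate 3, Hif1an was the 1 lower member called, beside 1563 genes higher and 1470 lower over the whole table. Without control replicate 3, the log2 fold changes were 1.22 for Egln3 and 0.61 for Vhl. Those of the lower genes were −0.58 for Arnt, −0.65 for Arnt2 and −0.99 for Hif1an.

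**Figure D4:**
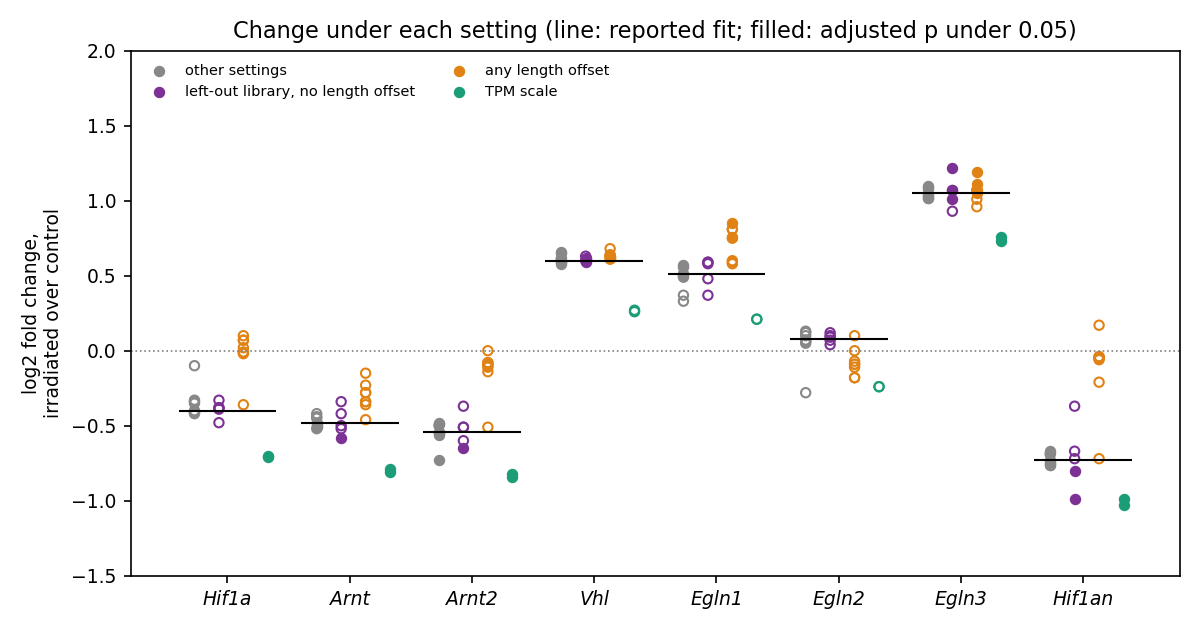
Log2 fold change (y axis, irradiated over control) of 8 genes under each alternative setting. Black lines mark the reported fit, colours group the settings, the length offsets include the effective length offset, and filled points have an adjusted p under 0.05. Egln3 is positive under every setting shown, with a range of 0.73 to 1.22. Hif1a and Egln2 cross 0, as does Hif1an in 1 fit (0.17).

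The order of the 10 genes by mean TPM differed between the groups. In control cells Hif1a led with 89.0 ± 5.04 (SD, n = 2), followed by Egln1 at 76.3 ± 2.41. Then came Arnt2 at 61.2 ± 14.3 and Egln2 at 54.5 ± 5.04, whose ranges overlapped, as did those of Arnt (45.7 ± 3.97) and Hif1an (36.3 ± 11.7) and of Hif1an and Vhl (28.7 ± 1.43). Egln3 followed at 18.0 ± 2.94, and Epas1 and Hif3a were last, near 0. In irradiated cells Egln1 led with 89.4 ± 15.5 (SD, n = 3), above Hif1a at 54.6 ± 8.18, and these ranges did not overlap. Next were Egln2 (46.0 ± 4.26), whose range overlapped that of Hif1a, then Vhl (34.6 ± 2.36), Arnt2 (33.8 ± 3.64) and Egln3 (30.4 ± 0.887), of which neighbours overlapped. Arnt (26.2 ± 4.04) and Hif1an (17.4 ± 2.53) closed the expressed genes, each outside the range of its neighbours.

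The promoters of the 3 genes that were called higher with the length offset are shown because Egln1 and Egln3 are known HIF targets. Each runs from 250 bases before to 50 bases after the RefSeq start (GRCm38.p6), 5′ to 3′ on the gene's strand. Capitals mark matches to the HIF core motifs ACGTG and GCGTG, searched on both strands (CACGT and CACGC). The windows are chr12:54203825-54204124 (minus strand) for Egln3, chr8:124949205-124949504 (minus strand) for Egln1 and chr6:113623744-113624043 (plus strand) for Vhl.
Egln3: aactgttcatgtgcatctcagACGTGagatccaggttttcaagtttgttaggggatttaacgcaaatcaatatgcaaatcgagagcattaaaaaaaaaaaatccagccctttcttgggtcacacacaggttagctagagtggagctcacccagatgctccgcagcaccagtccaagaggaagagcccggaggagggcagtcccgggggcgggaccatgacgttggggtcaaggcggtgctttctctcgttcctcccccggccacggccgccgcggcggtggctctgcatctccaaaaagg
Egln1: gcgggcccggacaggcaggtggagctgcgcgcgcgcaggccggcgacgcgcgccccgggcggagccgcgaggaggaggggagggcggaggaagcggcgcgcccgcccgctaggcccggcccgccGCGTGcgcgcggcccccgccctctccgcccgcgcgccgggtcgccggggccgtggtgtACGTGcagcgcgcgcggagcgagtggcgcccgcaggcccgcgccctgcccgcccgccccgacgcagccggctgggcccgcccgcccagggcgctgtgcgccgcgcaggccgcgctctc
Vhl: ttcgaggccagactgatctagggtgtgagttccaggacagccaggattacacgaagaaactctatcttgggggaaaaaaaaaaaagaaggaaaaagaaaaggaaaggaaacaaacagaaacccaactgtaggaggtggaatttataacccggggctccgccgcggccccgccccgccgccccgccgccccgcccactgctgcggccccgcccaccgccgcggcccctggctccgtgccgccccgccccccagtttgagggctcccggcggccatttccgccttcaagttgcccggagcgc
Egln3 held 1 match, ACGTG beginning 229 bases before the start. Egln1 held 2, ACGTG beginning 68 bases and GCGTG 126 bases before the start, and Vhl held 0.

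RefSeq promoters were at hand for 9 of the 10 genes, all but Epas1, and 6 of the 9 held a match. Hif1a had 3 matches on both strands, 2 of which overlap in 1 palindrome, and Hif3a had 2, Arnt 1, and the first Egln2 entry 6. Arnt2, Vhl and Hif1an had none. Of 32851 promoters of the same length, 19.6% held ACGTG, 32.4% held GCGTG and 43.8% held either. A match describes the letters in the window and was not tested as a binding site.

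Genes around the set were followed in 5 lists. Of 18 genes of the VHL ubiquitin ligase and of HIF turnover, 6 were higher and 2 lower, beside 12.7% and 13% of all genes, with a median log2 fold change of 0.39 beside 0.02 over all genes tested. With the length offset, 0 passed in either direction, beside 4.33% of all genes higher and 3.74% lower, and the median was 0.13. For a list of 18 genes, 0 calls is near those shares. Nedd8, the ubiquitin-like protein that activates cullin ligases, had 53 and 118 TPM in control and 176, 275 and 140 TPM in irradiated libraries, with a log2 fold change of 1.56 (SE 0.36, adjusted p = 0.0186 by edgeR) and 0.98 with the length offset (adjusted p = 0.0508). The scaffold gene Rack1 was higher (log2 fold change 0.90). The kinase gene Gsk3b (−1.11) and the SUMO protease gene Senp1 (−0.73) were lower. None of these 4 passed with the length offset.

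Of 10 genes for HIF coactivators and their inhibitors, 3 were higher and 4 lower, beside 12.7% and 13% of all genes, with a median log2 fold change of 0.39 (0.19 with the length offset). The paralogous acetyltransferases that bind the alpha subunit's transactivation domain were both among the lower genes. Ep300 had 61.1 and 60.8 TPM in control and 18.3, 17.3 and 24.1 TPM in irradiated libraries. Its log2 fold change was −1.33 (SE 0.16, adjusted p = 0.00811 by edgeR). It was the 1 gene of the list called with the length offset (−0.59, adjusted p = 0.0301). In that fit 4.33% of all genes were called higher and 3.74% lower. Crebbp had a log2 fold change of −1.35 and, with the length offset, −0.45 (adjusted p = 0.101). The coactivator gene Ncoa2 was lower (−0.76), and Cited4, which encodes a protein that binds the same acetyltransferases, was higher (1.02). Neither passed with the offset.

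Of 11 other genes of the bHLH-PAS family, to which the HIF subunits belong, 9 were tested, 0 were higher and 2 lower, beside 12.7% and 13% of all genes, with a median log2 fold change of −0.84 (−0.70 with the length offset). With the length offset 0 were higher and 1 lower, beside 4.33% and 3.74% of all genes. Npas3, a neuronal member, had a log2 fold change of −0.98 (SE 0.16, adjusted p = 0.00899 by edgeR) and −0.87 with the length offset (adjusted p = 0.0234). The circadian factor gene Clock was lower (−0.84) but was at 0.00 with the offset. Npas1 (−2.03, adjusted p = 0.055) and Arntl2 (−1.07, adjusted p = 0.123) missed the threshold.

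Of 28 other 2-oxoglutarate oxygenases, enzymes that share the chemistry of the HIF hydroxylases, 27 were tested, with 3 higher and 7 lower, beside 12.7% and 13% of all genes. With the length offset 3 were higher and 1 lower, beside 4.33% and 3.74% of all genes, and the median log2 fold change was −0.24 without and 0.08 with the offset. The share of higher genes without the offset and of lower genes with it was near that of all genes. The collagen hydroxylase genes P4ha1 and Plod1 were higher in both fits, with log2 fold changes of 0.83 and 1.22 and, with the offset, of 0.93 and 1.32 (adjusted p = 0.0184 for each). The DNA demethylase gene Tet2 was lower in both (−1.34, then −0.63 with an adjusted p of 0.0349). Its paralog Tet3 was lower (−1.08) and not called with the offset (−0.11).

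Of 44 HIF target genes, 41 were tested, 24 were higher and 0 lower, beside 12.7% and 13% of all genes. The counts with the length offset were again 24 and 0, beside 4.33% and 3.74% of all genes. With that offset and without irradiated replicate 1 or irradiated replicate 2, 0 genes of the whole table were called higher. The list was chosen with earlier results of these data known. The median log2 fold change was 0.73, and 0.70 with the offset, beside 0.02 and 0.04 over all genes tested. Bnip3, a mitophagy receptor gene, had 158 and 195 TPM in control and 579, 461 and 454 TPM in irradiated libraries, with a log2 fold change of 1.84 (SE 0.19, adjusted p = 0.00811 by edgeR). The glycolytic genes Aldoc (2.24), Aldoa (1.38) and Pgk1 (1.34) were also higher. All 4 passed with the offset as well. P4ha1 stands in this list and in the previous one.

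**Figure D5:**
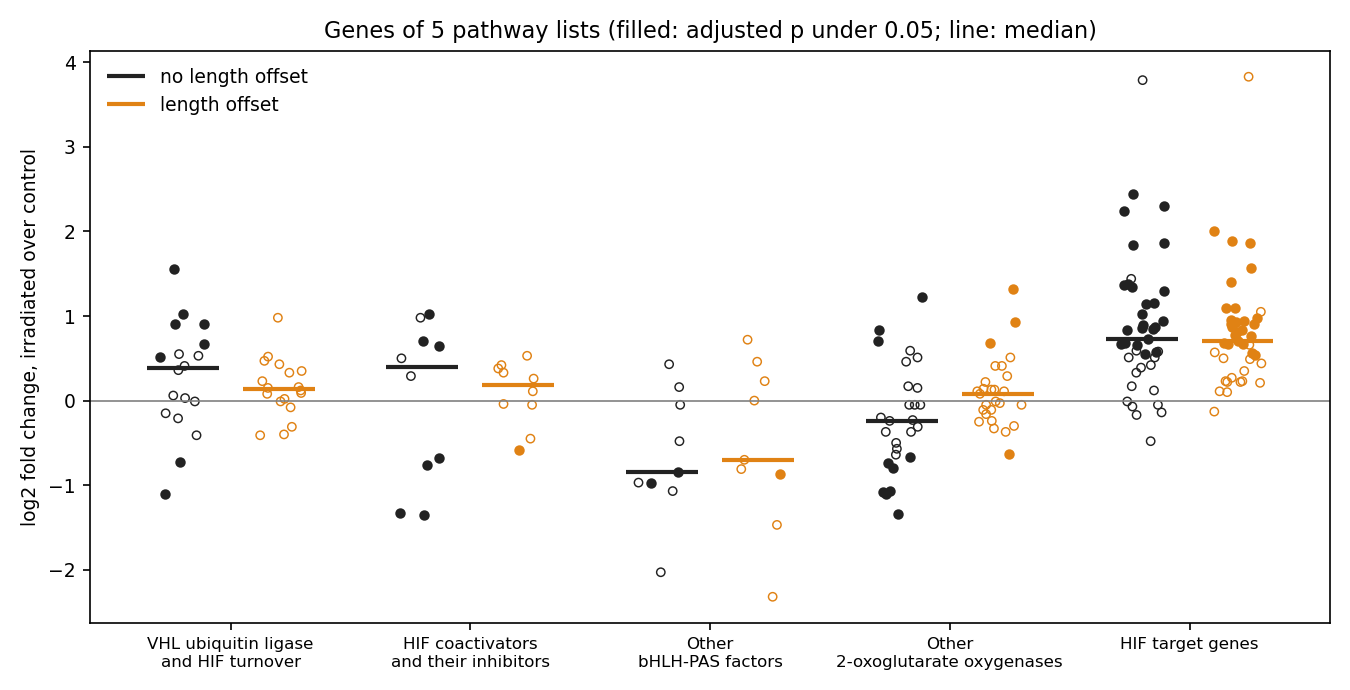
Log2 fold change (y axis, irradiated over control) of each tested gene of 5 lists, without (black) and with (orange) the length offset. Filled points have an adjusted p under 0.05 and lines are medians. With the offset, 4.33% of all genes are called higher and 3.74% lower. The HIF target list has medians of 0.73 and 0.70, the 2-oxoglutarate oxygenases have 3 higher calls and 1 lower call with the offset, and each of the other lists has 1 call or 0.

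The genes whose profile over the 5 libraries came nearest to that of Hif1a, by the root mean square difference of centred log2 CPM, were Rab3gap2 (0.0132), Tmem135 (0.016) and Zfp672 (0.0233). Their log2 fold changes were −0.40, −0.40 and −0.39, and this closeness to Hif1a follows from how they were picked. They missed the threshold, with adjusted p values of 0.0728, 0.118 and 0.131 by edgeR.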

How the data were processed

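The authors quantified reads with Salmon against mm10 and deposited, per transcript, the estimated counts (expected counts, not normalized) and TPM, scaled for length and to the same total in each library. Per the labels' processing notes the tools were Salmon 0.8.2 and DESeq2 1.22.2. The deposited files also give transcript length and effective length.

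Of 113116 transcripts, 112762 (99.69%) matched GENCODE M21 and were summed to gene symbols, with counts rounded. edgeR 4.0.16 (filterByExpr, TMM, quasi-likelihood, Benjamini-Hochberg over 14091 genes, no block) was used in R 4.3.3. Normalized CPM uses TMM library sizes. The length offset was fitted per library as a spline (5 degrees of freedom) over transcript length. The edgeR script was tested on simulated counts. Transcripts that held 10% or more of the TPM of their gene were compared with all others by blastn 2.17.0 at 95% identity. Hif3a was not compared, and short matches were left out. Of the genes compared, only Arnt2 matched another gene, its antisense partner Gm30873, over 221 bases. Alternatives used DESeq2 1.42.0 and limma 3.58.1, with pseudocounts of 1 and 0.1 for TPM.

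All 10 genes are named. From each list up to 4 genes with the smallest p are named. The genes and lists were chosen with earlier results of these data known. The floor was 3 reads, which covers counting error only. The 6 single-cell samples were not analysed here. 1 marker gene is not reported here.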

Additional observations from a re-analysis of the deposited data

How the results depend on the processing

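Of the alternatives for each of the 8 genes tested, 23 in all, Egln3 kept its call in 18 and Vhl in 13, both positive throughout, and Egln1 was called in 5. Arnt kept its lower call in 7, Arnt2 in 10 and Hif1an in 11. The number of genes called higher was 1 on both TPM scales, where 4 were lower (Hif1a among them, at −0.70 and −0.71, adjusted p = 0.0307 and 0.0304 by limma), and 0 under the study's thresholds, which also gave 0 lower. Both TPM scales leaned to lower calls over all 14091 genes. On log2(TPM + 1), 700 were higher and 2684 lower, with a median of −0.24. On log2(TPM + 0.1), 729 were higher and 2648 lower, with a median of −0.30. The number lower was 0 with the length offset and 0 with the effective length offset, beside 527 and 1393 lower over all genes. Leaving out 1 library at a time gave 0 to 2 genes higher and 0 to 3 lower without the length offset. With it, an alternative chosen after seeing the data, 0 to 2 were higher and 0 lower, and the fits without control replicate 2, irradiated replicate 1 or irradiated replicate 2 called 1, 0 and 2 genes over the whole table. Without the length offset, leaving out 1 irradiated library gave 687 to 1563 genes higher and 837 to 1470 lower over the whole table. The causes were not tested.

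Direction turned for Hif1a, Egln2 and Hif1an, which were at −0.40, 0.08 and −0.73 in the reported fit. Hif1a was at 0.02 (log2) with the length offset, and at 0.1 and 0.07 with it and without control replicate 3 or irradiated replicate 1. Egln2 was at −0.11 with the length offset, −0.28 with the GC offset, −0.24 on both TPM scales, and between −0.18 and 0.00 with the length offset and 1 library left out (−0.18 without control replicate 3 or irradiated replicate 3, −0.09 without irradiated replicate 1, −0.07 without irradiated replicate 2). Hif1an was at 0.17 with the length offset and without control replicate 2. Leaving out 1 library moved the difference in the Egln1 share from −0.361 to 4.81 percentage points, in the Arnt2 share from −3.06 to 2.12 percentage points and in the log2 ratio of Epas1 to Hif1a from −2.15 to 2.1. The differences in the Egln2 and Egln3 shares kept their sign under every alternative run, at −10.1 to −5.88 and 5.24 to 7.48 percentage points. The length offset was not among the alternatives run for the shares.

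The replicate block rests on the numbers 2 and 3 alone, which no source ties to shared cultures, and the difference between these replicates correlated at −0.201 across genes between the groups. With the block, 1 gene was higher (Egln3, log2 fold change 1.08, adjusted p = 0.0317 by edgeR) and 0 lower, while adding the length offset left 0 called in either direction (3 higher and 0 lower at an unadjusted p under 0.05), with Hif1a at 0.07 and Egln2 at −0.09. The Egln1 share then differed by −0.361 and the Arnt2 share by 1.85 percentage points. Over all genes, calls numbered 585 higher and 480 lower with the block, and 11 and 18 once the length offset was added.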
